A study of Mus musculus with 3 samples.

Results

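The genes examined here encode enzymes of cholesterol and fatty acid synthesis and the proteins that control their transcription. They were 30 genes chosen by symbol, of 17633 genes with at least 1 read, and all 30 symbols were found in each of the 3 gene tables. The list held 16 sterol enzymes, 9 fatty acid enzymes and 5 regulators of the SREBP system. The tables came from whole-transcriptome RNA-seq of the endoderm, mesoderm and epiblast of ICR mouse embryos at embryonic day 7.5, with no genotype change and no treatment. Germ layers were separated by enzyme digestion and hand dissection of the embryonic region, material from many embryos was pooled for each layer, and the layer called epiblast included the primitive streak. Each germ layer was 1 library, so that no difference between layers has a replicate check, and no gene carries an SD or a test over samples. Levels are in RPKM, the reads on a gene scaled by its length and by the size of the library, and every interval is a 95% counting interval that covers counting error only. In bulk tissue of this kind, fewer cells of a type and less RNA per cell cannot be told apart.

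Cholesterol synthesis starts in the cytosol from acetyl-CoA. The mevalonate pathway builds isoprenoid units, which are joined to squalene, and squalene is closed to lanosterol and trimmed to cholesterol in the endoplasmic reticulum. Fatty acid synthesis draws on the same acetyl-CoA, extends it to palmitate, and passes palmitate to elongases and desaturases. Both branches are under the control of the SREBP transcription factors, which SCAP escorts to the Golgi for cleavage and which INSIG proteins hold back when sterols are plentiful. In the early embryo cholesterol is needed for membranes and for the lipid modification of Hedgehog ligands, and the visceral endoderm and yolk sac take up and export lipids before the placenta works.

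The 2 branches differed between germ layers in different ways. The fatty acid branch was lower in endoderm, where its 9 genes summed to 224 RPKM against 446 in mesoderm and 412 in epiblast. The sterol branch differed little in sum, with 249 RPKM in endoderm against 269 in mesoderm and 295 in epiblast. Within the sterol branch the layers split by gene, since *Tm7sf2*, *Hsd17b7* and *Ebp* were higher in endoderm, *Sqle* and *Idi1* were lower there, and *Cyp51* was highest in mesoderm. The largest differences were those of the fatty acid desaturases *Fads2* and *Fads1*, for which mesoderm exceeded endoderm by 8.89-fold and 5.25-fold. The 5 SREBP regulators differed by less than 2-fold in every pair.

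Genes were called differentially expressed by the criteria of the study, namely a level of RPKM>5 in either library of the pair, Fold Change>2, and FDR<0.001 in an exact test of both read counts. This test compares libraries and not germ layers, and at this depth the FDR criterion removed none of the members, so that a call is in practice a call on size. Between endoderm and mesoderm 9 of the 30 members were called, against 23.0% of the 8867 genes with RPKM>5 in either library. Of these 9, 4 were higher in endoderm (14.4% of all genes) and 5 in mesoderm (8.56%). Between endoderm and epiblast 6 of 30 were called, against 24.6% of 8843 genes, 1 higher in endoderm (15.7%) and 5 in epiblast (8.94%). Between mesoderm and epiblast 28 members passed the RPKM criterion, with *Tm7sf2* and *Hsd17b7* below it, and 1 was called, against 10.3% of 8340 genes. That gene was higher in mesoderm (5.30% of all genes), and none was higher in epiblast (5.02%). In at least 1 pair 11 members were called, 5 of them in 2 pairs, against 31.5% of 9135 genes. The counts by direction differ from the shares over all genes in both senses, with fewer members higher in endoderm than in epiblast and more members lower in endoderm than in either layer. No test was made of these differences, and nothing particular to the list is read from them.

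The libraries held 40.8 M to 42.7 M reads on genes (M for mega). Every member had at least 82 reads in every library and at most 31629, and 26 members had RPKM>5 in all 3. The markers of each germ layer were highest in their own library for 7 of 7 mesoderm genes, 7 of 7 epiblast genes and 6 of 7 endoderm genes, with *Gata6* highest in mesoderm. The endoderm library also carried the markers of the visceral endoderm, the extra-embryonic layer that feeds the embryo. All 12 listed visceral endoderm genes were highest there, and they summed to 7322.5 RPKM against 31.7 in mesoderm and 17.2 in epiblast. Their part in the endoderm values of the lipid genes was not tested. The trophoblast list was highest in mesoderm at 257 RPKM (56.3 in endoderm, 87.5 in epiblast), most of it *Hand1*, which mesoderm also uses. Without *Hand1* the list summed to 55.3 RPKM in endoderm against 35.5 in mesoderm and 54.2 in epiblast. In it *Esx1* (7.11, 0.0606 and 0.130 RPKM) and *Plac1* (19.9, 6.25 and 0.569 RPKM), named after their values were seen, were highest in endoderm. The other 4 with reads went the other way and were highest in epiblast. These were *Elf5*, *Ascl2*, *Cdx2* (18.4, 20.9 and 37.1 RPKM) and *Eomes* (9.51, 7.01 and 14.5 RPKM). Each table lists only genes with a read in its library, and *Tpbpa* and *Prl3d1* are listed in none. The primitive erythroid list summed to 1.41 to 5.92 RPKM, with *Hba-x* and *Hbb-y* listed in no table, and the maternal decidua list to 5.59 to 26.3 RPKM, with *Prl8a2* listed in none. The part of these cell types in the results was not tested.

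**Figure D1:**
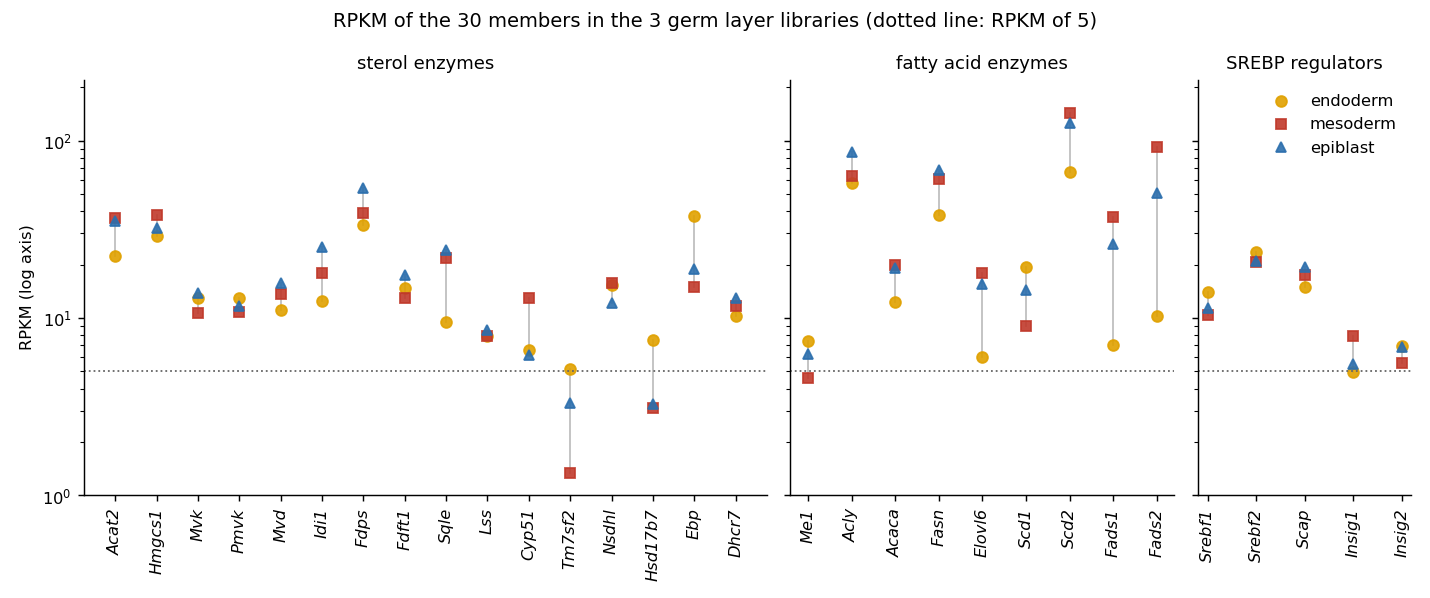
RPKM of each of the 30 members (log axis) in the endoderm, mesoderm and epiblast libraries, in pathway order within each group, 1 point per library. The points of most sterol genes and regulators lie close together, while *Elovl6*, *Fads1* and *Fads2* sit lowest in endoderm by more than 2-fold and *Ebp* and *Hsd17b7* sit highest there.

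Promoter sequences were read for the letters of motifs tied to this pathway. RefSeq windows of 300 bases, from 250 bases before to 50 after an annotated start in GRCm38.p6, were at hand for 24 of the 30 members. *Fdps*, *Fdft1*, *Sqle*, *Scd1*, *Scd2* and *Fads1* had none. The core of the classical sterol regulatory element, TCACNCCAC on either strand, was in the promoter of 1 of the 24 genes, *Hmgcs1*, against 1.44% of all 27025 genes in the table. The E-box CACGTG, a palindrome that SREBP1 can also bind, was in those of *Hsd17b7*, *Dhcr7*, *Scap* and *Insig1*, which is 16.7% of 24 against 8.09% of all genes and 12.5% of genes with RPKM>5. The CCAAT box, bound by NF-Y, a partner of SREBP at many sterol genes, was in 19 of 24 (79.2% against 41.1% of all genes and 43.9% of genes with RPKM>5). By branch the CCAAT box was found in 12 of 13 sterol enzymes, 3 of 6 fatty acid enzymes and 4 of 5 regulators. Matches of different motifs did not overlap in these promoters, and a match is a description of the sequence, not a site shown to be bound. The windows below are shown because they hold the only sterol element found and 1 CCAAT box or E-box of each called sterol gene with a promoter, and of *Insig1* and *Fasn*. Each is 30 bases on the strand of its gene, with the motif in capitals (ATTGG is the CCAAT box on the other strand, and in *Fasn* the letters of 2 boxes on opposite strands overlap).
Hmgcs1, chr13:119690204-119690233, plus strand: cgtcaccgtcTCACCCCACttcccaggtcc
Hsd17b7, chr1:169969331-169969360, minus strand: ggacccttgtgtCACGTGgctccgcccctc
Insig1, chr5:28071299-28071328, plus strand: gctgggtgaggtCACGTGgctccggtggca
Ebp, chrX:8193550-8193579, minus strand: atccctgtactgATTGGttcgtcagattcg
Tm7sf2, chr19:6067880-6067909, minus strand: ctcccagcgctgATTGGctactgtgctggg
Cyp51, chr5:4104709-4104738, minus strand: cgctgtccgccaCCAATctggtcctgagat
Idi1, chr13:8885549-8885578, plus strand: tgcctccagctgATTGGcgagcccgggcat
Fasn, chr11:120824592-120824621, minus strand: cggcctcggtgtCCAATtggtttcgatgtg
The CCAAT box was present both in sterol genes that were highest in endoderm (*Ebp*, *Tm7sf2* and *Hsd17b7*) and in genes that were highest in epiblast or mesoderm (*Idi1* and *Cyp51*). No motif of the 3 was found in the windows of *Acat2*, *Acaca*, *Elovl6* and *Fads2*.

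The first steps of the mevalonate pathway differed by less than 2-fold between the layers, and none was called. *Acat2*, the cytosolic thiolase that joins 2 acetyl-CoA units, was at 22.4 RPKM in endoderm against 36.8 in mesoderm and 35.2 in epiblast. The mesoderm level was 1.65-fold that of endoderm, below the fold criterion, and mesoderm and epiblast could not be told apart by counting error. *Hmgcs1*, which makes HMG-CoA, was at 29.1, 37.8 and 32.03 RPKM in endoderm, mesoderm and epiblast, a range of 1.30-fold. *Mvk*, the kinase of mevalonate, was at 13.0, 10.7 and 13.8 RPKM, and *Pmvk*, the next kinase, at 12.9, 10.8 and 11.7 RPKM. Both kinases were lowest in mesoderm, with at most 1.29-fold between libraries. *Mvd*, which removes carbon dioxide to give the first isoprenoid unit, was at 11.1, 13.7 and 15.8 RPKM, so that it was highest in epiblast by 1.43-fold over endoderm.

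The steps from isoprenoid to squalene were highest in epiblast. *Idi1*, the isomerase of the isoprenoid unit, was at 12.5 RPKM in endoderm against 18 in mesoderm and 25.1 in epiblast. It was called in 1 pair, 2.01-fold higher in epiblast than in endoderm (1.89 to 2.14), and this interval spans the fold criterion. The call was lost with libraries scaled by TMM or by the median of ratios (1.86-fold in both) or to the same RPKM total (1.89-fold). *Fdps*, which makes farnesyl diphosphate, was at 33.5, 39.1 and 54.0 RPKM, a difference of 1.61-fold between epiblast and endoderm. *Fdft1*, squalene synthase, was at 14.7, 12.9 and 17.5 RPKM, with at most 1.36-fold between libraries. All 3 genes were thus highest in epiblast, and *Idi1* and *Fdps* had the same order of layers.

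Squalene epoxidase, the second rate-limiting step of the pathway, was the sterol gene with the clearest deficit in endoderm. *Sqle* was at 9.51 RPKM in endoderm (1088 reads) against 21.9 in mesoderm (2455 reads) and 24.3 in epiblast (2850 reads). It was called in both comparisons with endoderm, 2.30-fold higher in mesoderm (2.14 to 2.47) and 2.55-fold higher in epiblast (2.38 to 2.74). The next enzyme, the lanosterol synthase *Lss*, did not follow it, at 7.90, 7.91 and 8.55 RPKM, a range of 1.08-fold that is within counting error between neighbouring libraries. The RPKM of *Sqle* over that of *Lss* was 1.20 in endoderm against 2.77 in mesoderm and 2.84 in epiblast. *Sqle* lies on chromosome 15, positions 59315077 to 59331192 of GRCm38, and no stretch of 50 bases of its transcript recurs in another gene's transcripts.

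The enzymes that turn lanosterol into cholesterol split between the layers. *Cyp51*, which removes the 14-alpha methyl group of lanosterol, was at 6.61 RPKM in endoderm against 13.0 in mesoderm and 6.18 in epiblast. By these criteria it was the only member called between mesoderm and epiblast, at 2.11-fold (1.97 to 2.27), and 408 of 8340 genes had a larger mesoderm-to-epiblast ratio. Against endoderm it was 1.97-fold higher in mesoderm (1.84 to 2.12), just below the criterion, and the endoderm and epiblast levels could not be told apart by counting error. *Tm7sf2*, a reductase of the sterol 14 double bond, was at 5.15 RPKM in endoderm (321 reads) against 1.34 in mesoderm (82 reads) and 3.32 in epiblast (212 reads). It was called as 3.84-fold higher in endoderm than in mesoderm (3.0 to 4.95), and its endoderm level stood just above the RPKM criterion. *Cyp51* and *Tm7sf2*, which act on successive intermediates, therefore had opposite orders of endoderm and mesoderm.

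Later steps of sterol demethylation need the enzymes encoded by *Nsdhl* and *Hsd17b7*. *Nsdhl*, the decarboxylase, was at 15.4 RPKM in endoderm against 15.7 in mesoderm and 12.2 in epiblast. *Hsd17b7*, the 3-keto reductase, was at 7.48 RPKM in endoderm (1425 reads) against 3.10 in mesoderm (579 reads) and 3.27 in epiblast (638 reads). *Nsdhl* was thus even between endoderm and mesoderm within counting error, while *Hsd17b7* was higher in endoderm than in both other layers, by 2.41-fold over mesoderm (2.19 to 2.66) and 2.29-fold over epiblast (2.08 to 2.52). With the deposited scaling no other member was called as higher in endoderm against both layers, and under 3 of the 4 other scalings tried *Ebp* was as well.

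*Ebp*, the isomerase that moves the sterol double bond from position 8 to 7, had the highest level of the sterol branch in endoderm, at 37.4 RPKM (2732 reads) against 14.9 in mesoderm (1068 reads) and 18.9 in epiblast (1413 reads). It was called as 2.51-fold higher in endoderm than in mesoderm (2.34 to 2.70), and it missed the criterion against epiblast at 1.98-fold (1.86 to 2.12). It took 15.0% of the RPKM of the sterol enzymes in endoderm against 5.53% in mesoderm and 6.40% in epiblast. Reads covered 63.9 to 75.04% of its length, against over 84% for the other called members, which is a measured limit on its level. *Dhcr7*, the last reductase before cholesterol in 1 branch of the pathway, was at 10.3, 11.7 and 12.9 RPKM in endoderm, mesoderm and epiblast, with at most 1.25-fold between libraries.

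Over the 16 sterol enzymes, 8 were highest in epiblast, 4 in mesoderm and 4 in endoderm, where all genes with RPKM>5 divided into 32.6%, 30.3% and 37.1%. With TMM scaling these counts were 7, 3 and 6. The median log2 ratio of endoderm over mesoderm was -0.10, the same as the median of all genes at -0.10, and it was 0.01 with libraries scaled by TMM. That of endoderm over epiblast was -0.13 (all genes -0.08) and that of mesoderm over epiblast -0.15 (all genes 0.02), with 12 of 16 genes below 1. The branch took 0.0532% of the summed RPKM of all genes in endoderm against 0.0562% in mesoderm and 0.0592% in epiblast. The sterol branch as a whole was thus close to the other genes, and the called genes went both ways.

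**Figure D2:**
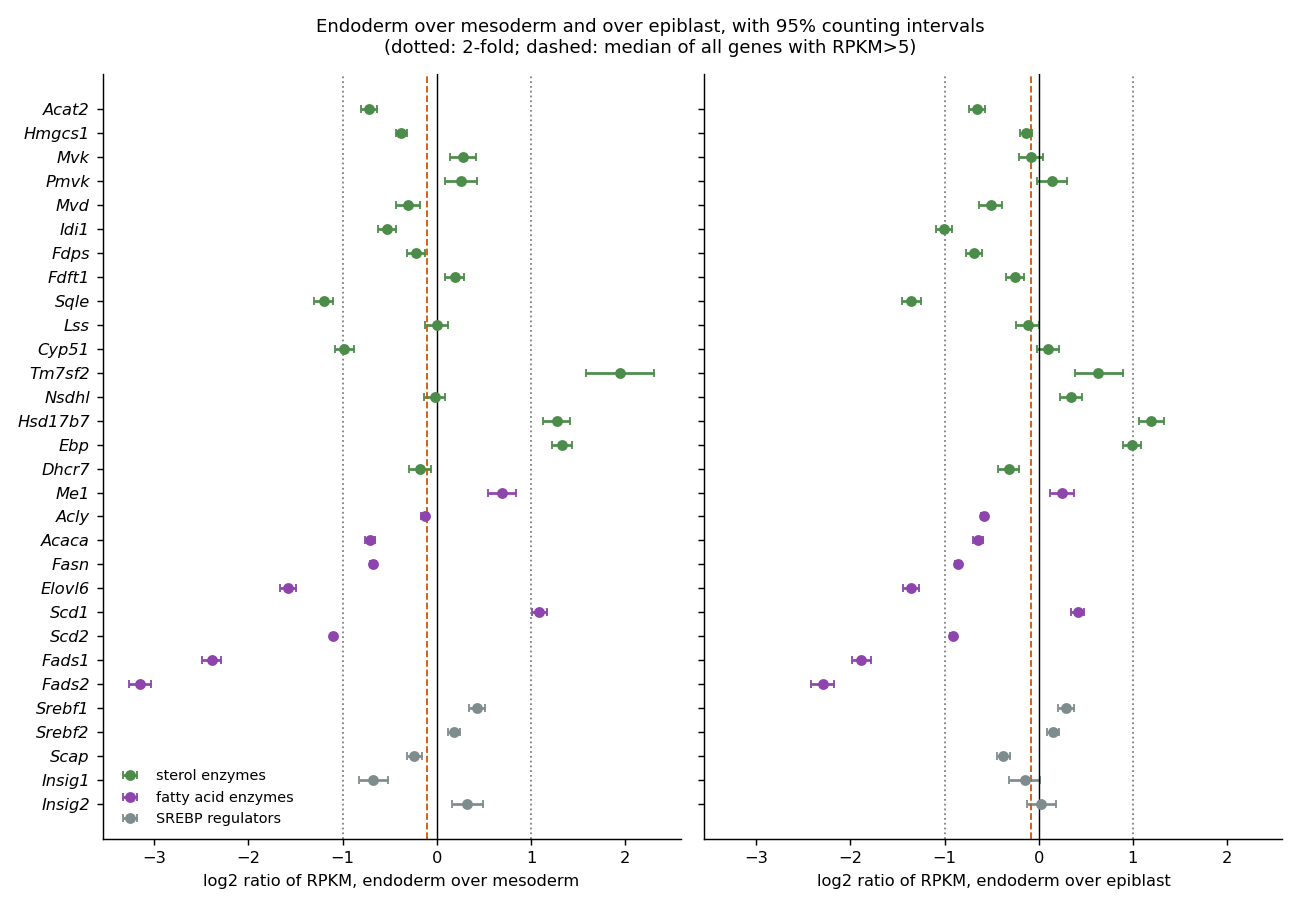
log2 ratio of RPKM of endoderm over mesoderm and endoderm over epiblast for each of the 30 members, with 95% counting intervals, coloured by group; dotted lines mark 2-fold and the dashed line the median of all genes with RPKM>5. Fatty acid enzymes lie mostly left of 0, with *Fads2* at -3.15 and -2.30, while sterol enzymes lie on both sides, from -1.20 to 1.94 against mesoderm.

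The supply and synthesis of saturated fatty acids was lower in endoderm for 3 of 4 genes, without any call. *Me1*, malic enzyme, which gives NADPH, was the exception, at 7.45 RPKM in endoderm against 4.61 in mesoderm and 6.28 in epiblast, a range of 1.62-fold. *Acly*, which releases acetyl-CoA from citrate, was at 57.7, 63.2 and 86.4 RPKM, and *Acaca*, the carboxylase that makes malonyl-CoA, at 12.2, 19.99 and 19.1 RPKM. *Fasn*, fatty acid synthase, was at 37.8 RPKM in endoderm against 60.5 in mesoderm and 68.6 in epiblast. The highest and lowest libraries differed by 1.5-fold for *Acly*, 1.63-fold for *Acaca* and 1.81-fold for *Fasn*, with endoderm lowest in each. *Fasn* and *Acaca* kept close to the same proportion, with a ratio of RPKM of 3.09, 3.03 and 3.59 in endoderm, mesoderm and epiblast.

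*Elovl6*, the elongase that takes palmitate to stearate, was called in both comparisons with endoderm. It was at 6.03 RPKM in endoderm (1495 reads) against 18.02 in mesoderm (4381 reads) and 15.5 in epiblast (3927 reads). Mesoderm was 2.99-fold (2.82 to 3.17) and epiblast 2.56-fold (2.41 to 2.72) above endoderm, while mesoderm and epiblast differed by 1.17-fold. It lies on chromosome 3, positions 129532355 to 129638495.

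The stearoyl-CoA desaturases, which make monounsaturated fatty acids, went in opposite directions. *Scd2* was the most highly expressed member, at 66.3 RPKM in endoderm against 142 in mesoderm and 125 in epiblast. *Scd1* was lower in each library, at 19.3, 9.05 and 14.4 RPKM. *Scd2* was thus lowest in endoderm and *Scd1* highest there. *Scd2* was called as 2.14-fold higher in mesoderm than in endoderm (2.10 to 2.18) and reached 1.89-fold in epiblast (1.85 to 1.92). Its call was lost with libraries scaled by TMM or by the median of ratios, at 1.98-fold in both. *Scd1* was called as 2.13-fold higher in endoderm than in mesoderm (2.01 to 2.25). The RPKM of *Scd2* over that of *Scd1* was 3.44 in endoderm against 15.7 in mesoderm and 8.65 in epiblast. Both genes lie on chromosome 19 and are transcribed toward each other, *Scd2* at 44293674 to 44306864 on the plus strand and *Scd1* at 44394455 to 44407879 on the minus strand, with 87590 bases between them. Of their sequence, 4.01% of the 50-base windows of *Scd2* and 4.66% of those of *Scd1* recur in transcripts of another gene.

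*Fads1* and *Fads2*, the desaturases that act in turn on polyunsaturated fatty acids, had the largest differences of all members. *Fads2*, the delta-6 desaturase, was at 10.3 RPKM in endoderm (647 reads) against 91.5 in mesoderm (5638 reads) and 50.6 in epiblast (3257 reads). *Fads1*, the delta-5 desaturase, was at 7.07 RPKM in endoderm (1023 reads) against 37.1 in mesoderm (5265 reads) and 26.1 in epiblast (3871 reads). Both genes were high in mesoderm, intermediate in epiblast and low in endoderm. For *Fads2*, mesoderm was 8.89-fold (8.19 to 9.65) and epiblast 4.91-fold (4.51 to 5.35) above endoderm. The corresponding values of *Fads1* were 5.25-fold (4.91 to 5.62) and 3.69-fold (3.44 to 3.96). Of the 8867 genes with RPKM>5 in endoderm or mesoderm, 130 had a smaller ratio of endoderm over mesoderm than *Fads2* and 210 a smaller one than *Fads1*. Between mesoderm and epiblast neither was called, at 1.81-fold and 1.42-fold.

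The 2 desaturase genes are neighbours on chromosome 19. *Fads2* spans 10062765 to 10101746 on the minus strand and *Fads1* spans 10182888 to 10196877 on the plus strand, so that they are transcribed away from each other from starts 81142 bases apart. The RPKM of *Fads2* over that of *Fads1* was 1.46 in endoderm against 2.47 in mesoderm and 1.94 in epiblast. The deposited length of *Fads2*, 1508 bases, is shorter than its annotated transcript of 3150 bases, which bears on the level of *Fads2* against other genes but not on its ratios between libraries. *Fads2* took 4.59% of the RPKM of the fatty acid enzymes in endoderm against 20.5% in mesoderm and 12.3% in epiblast.

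Over the 9 fatty acid enzymes, 7 were lower in endoderm than in mesoderm and 7 lower in endoderm than in epiblast, with *Me1* and *Scd1* as the exceptions in both, and these counts were the same under the 4 other scalings tried. The median log2 ratio was -0.71 against mesoderm and -0.86 against epiblast, where the medians of all genes were -0.10 and -0.08. Between mesoderm and epiblast it was 0.07, with 5 genes higher in mesoderm and 4 in epiblast and none called. The median of the sterol enzymes exceeded that of the fatty acid enzymes by 0.61 for endoderm over mesoderm and by 0.73 for endoderm over epiblast, and lay 0.21 below it for mesoderm over epiblast (difference -0.21). These differences between branches do not depend on how libraries are scaled. The fatty acid branch took 0.0479% of the summed RPKM of all genes in endoderm against 0.0931% in mesoderm and 0.0827% in epiblast. Without *Scd2* its sum was 158, 304 and 287 RPKM, so that the lower sum in endoderm did not rest on that gene alone. These sums hold *Fads2* at 10.3, 91.5 and 50.6 RPKM, levels that rest on its short deposited length.

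**Figure D3:**
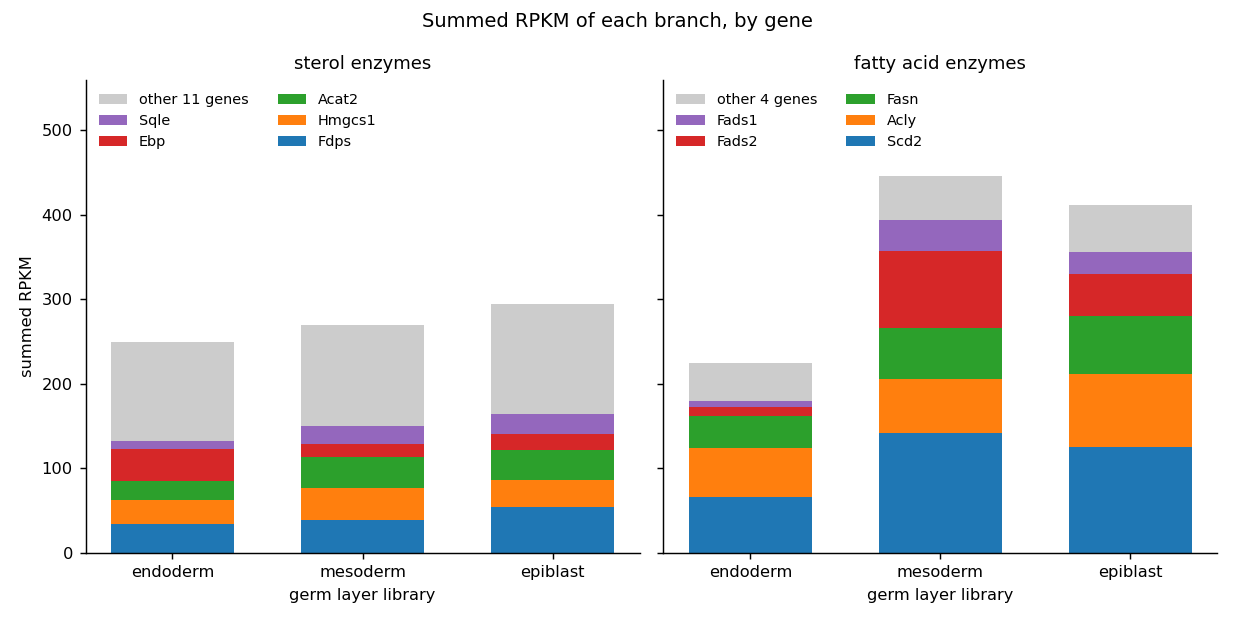
Summed RPKM of the sterol enzymes and of the fatty acid enzymes in each germ layer library, stacked by gene, with the 5 genes of the highest mean level named and the others in grey. The sterol sum runs from 249 to 295, while the fatty acid sum is 224 in endoderm and 412 or more in the other layers, where the *Fads2* and *Scd2* segments are larger.

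The regulators of the SREBP system were the most even group. *Srebf1*, the factor best known for fatty acid genes, was at 14.0 RPKM in endoderm against 10.4 in mesoderm and 11.4 in epiblast. *Srebf2*, the factor best known for sterol genes, was at 23.4, 20.7 and 21.1 RPKM. Both were highest in endoderm, with 1.35-fold and 1.13-fold between the extreme libraries, and the ratio of *Srebf2* over *Srebf1* was 1.67, 1.99 and 1.84. *Scap*, the escort, was at 14.9, 17.6 and 19.3 RPKM, with endoderm lowest. *Insig1*, itself a known SREBP target, was at 4.95 RPKM in endoderm against 7.90 in mesoderm and 5.50 in epiblast, and *Insig2* at 6.97, 5.57 and 6.84 RPKM. *Insig1* was therefore above *Insig2* in mesoderm (ratio 1.42) and below it in endoderm (0.710) and epiblast (0.804). None of the 5 was called in any pair, and their summed level was 64.2, 62.1 and 64.2 RPKM. Their median log2 ratio was 0.18, 0.03 and -0.14 for endoderm over mesoderm, endoderm over epiblast and mesoderm over epiblast.

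Across the 30 members the highest library exceeded the lowest by a median of 1.61-fold. The median was 1.52-fold for sterol enzymes, 2.13-fold for fatty acid enzymes and 1.30-fold for regulators, and 13 members stayed under 1.5-fold. The highest level was in endoderm for 9 members, in mesoderm for 10 and in epiblast for 11. For 12 members an exon overlaps that of another gene in the annotation, among them *Cyp51* with *Akap9* on the other strand and *Tm7sf2* with *Vps51* on the same strand, and whether reads were counted by strand is not given in the sources used here. The counts of *Fdps*, *Acaca* and *Acat2* are the least certain, since 86.4%, 52.6% and 45.9% of the 50-base windows of their transcripts recur in *Gm43738*, *Gm5182*, *Acat3* and other genes. Among the called members the share of such windows was highest for *Idi1*, at 30.5%. No such window was found for *Sqle*, *Ebp*, *Hsd17b7*, *Tm7sf2*, *Fads1*, *Fasn* and *Acly*.

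The other genes of the same pathways that were called against endoderm were all higher in endoderm. Over all genes with RPKM>5, calls higher in endoderm were also the more frequent. Their share was 14.4% against mesoderm and 15.7% against epiblast, and that of calls lower in endoderm 8.56% and 8.94%. The counts of these pathways were not tested against the shares. Of 19 other genes of fatty acid synthesis and elongation, 18 had reads and 10 had RPKM>5 in any library. Of these 10, 3 were called in at least 1 pair, against 31.5% of all genes with RPKM>5, and all 3 were higher in endoderm. These were *Elovl1*, the elongase of very long chains (49.7 RPKM in endoderm against 19.1 in mesoderm and 10.3 in epiblast), and the dehydratases of the elongation cycle *Hacd2* (21.4, 8.85 and 8.25) and *Hacd3* (22.6, 11.1 and 15.7). Over the 17 genes of the whole list with more than 3 reads in either library of the pair, the median log2 ratio was 0.46 for endoderm over mesoderm and 0.33 for endoderm over epiblast. Of 10 other sterol synthesis genes 8 had RPKM>5 in any library and 1 was called, against the same 31.5% of all genes. This was *Acat1*, at 14.0 RPKM in endoderm against 5.19 in mesoderm and 2.79 in epiblast. It is a mitochondrial thiolase known for ketone body metabolism. Of 13 genes of SREBP processing and sterol-regulated degradation, 12 had RPKM>5 in any library and 3 were called, against the same 31.5%. All 3 were higher in endoderm than in epiblast, and 1 of them was also called as higher than in mesoderm. Among them *Erlin1* was at 12.2, 5.32 and 3.89 RPKM and *Erlin2* at 38.6, 21.7 and 17.3, and both encode proteins of the endoplasmic reticulum that serve in protein degradation. None of the 5 genes of cytosolic NADPH supply, 4 of them with RPKM>5, was called, with a median log2 ratio of 0.01 for endoderm over mesoderm and -0.30 for endoderm over epiblast.

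**Figure D4:**
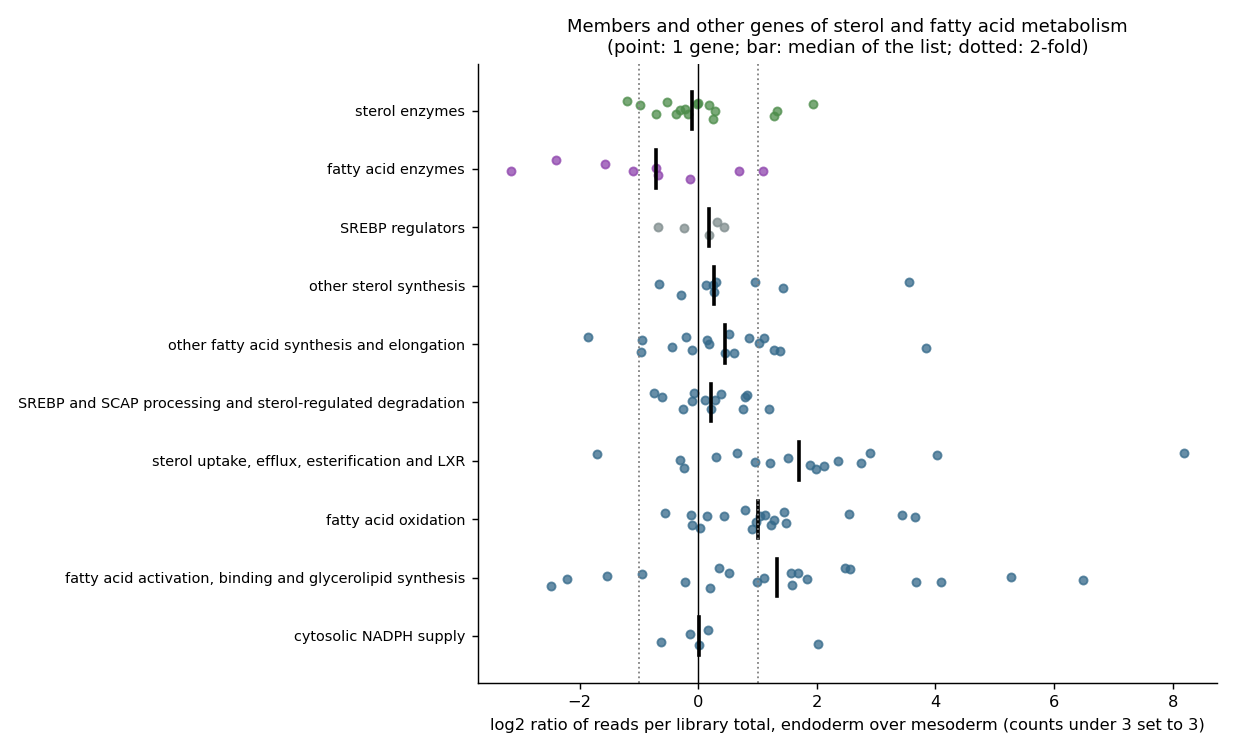
log2 ratio of endoderm over mesoderm for each gene of the 3 member groups and of 7 other lists of lipid genes (1 point per gene; counts under 3 set to 3), with the median of each list as a bar. The fatty acid enzymes are the list with the lowest median, -0.71, and the lists of sterol uptake and fatty acid binding have the highest, 1.70 and 1.33.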

How the data were processed

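Reads were mapped and counted by the authors. Per the file headers, each deposited table gives per gene its length, a count of reads, the RPKM and the percent of the length covered by reads. The labels name TopHat, mm10 and mm9 without a role, and the methods of the study give TopHat and mm10 for its splicing analysis. The counter, annotation and strand setting of the gene tables are not given in the sources used here. RPKM recomputed from the deposited counts differed by at most 2.03e-07 (relative). Levels and ratios use the deposited RPKM and counts, with no pseudocount. Differential expression followed the methods of the study: RPKM>5 in at least 1 of the 2 libraries, Fold Change>2, and FDR<0.001 from the exact test by Audic and Claverie (two-sided), adjusted by Benjamini and Hochberg over all genes with a read in either library. The test was checked on simulated data. With 1 library per germ layer, no dispersion could be estimated, and no model across replicates could be fitted. Intervals are exact Poisson for levels and exact conditional binomial for ratios (95%), and reads are not independent molecules, so they cover counting error only. A count under 3 reads was taken as 3 in ratios of other lists.

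The members, the lists of other lipid genes and the marker lists were chosen with earlier results of these data known. From each other lipid list at most 5 genes with the largest ratio among those called were to be named, and some of these are not reported here. Older symbols were matched through RefSeq. Coordinates and overlaps come from the annotation of GRCm38 (GENCODE M21), and promoters from RefSeq (GRCm38.p6). Alternatives were other RPKM and fold criteria, 4 other scalings, and an assumed variation between replicates. Python 3.11.15, SciPy 1.17.1, R 4.3.3 and edgeR 4.0.16 were used.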

Additional observations from a re-analysis of the deposited data

How the results depend on the processing

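All results rest on 1 library per germ layer, so that no spread between embryos is known. At 40.8 M reads or more per library, counting error is small, and a call depends on the criteria chosen. Of the 11 members called, 9 remained with libraries scaled by TMM or by the median of ratios, where *Idi1* (1.86-fold in both) and *Scd2* (1.98-fold in both) dropped below 2-fold, and 10 with the same RPKM total (*Idi1* 1.89-fold). Under these 3 scalings *Ebp* was called as higher in endoderm than in epiblast as well, and with the same upper quartile *Cyp51* and *Scd2* gained a call against endoderm. The criterion RPKM>10 left 9, without *Tm7sf2* and *Hsd17b7*. Members called in any pair, endoderm against mesoderm, endoderm against epiblast and mesoderm against epiblast numbered 17, 15, 13 and 3 at Fold Change>1.5 and 2, 2, 1 and 0 at Fold Change>4. With an exact test of edgeR and an assumed biological coefficient of variation of 0.2 they numbered 3, 3, 2 and 0 (*Tm7sf2*, *Fads1* and *Fads2*), and with 0.4 they numbered 0 in each. With RPKM>1 or no RPKM criterion 2 members were called between mesoderm and epiblast. No paired analysis was possible because each germ layer has 1 library. The cause of these changes was not tested.

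Over all genes the calls between endoderm and mesoderm numbered 2038, and 3375 with RPKM>1, 4676 with no RPKM criterion, 3539 with Fold Change>1.5, 936 with Fold Change>4, and 1199 and 387 with the assumed variation of 0.2 and 0.4. In the same order they numbered 2176, 3561, 4854, 3920, 898, 1235 and 331 between endoderm and epiblast, and 861, 1841, 2769, 1560, 334, 443 and 60 between mesoderm and epiblast, where RPKM>10 gave 525.

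TMM and the median of ratios added 0.11 to every log2 ratio of endoderm over mesoderm and over epiblast, which took the median of all genes to 0.01 and 0.03. The medians against mesoderm became 0.0117 and 0.0125 for sterol enzymes, -0.60 for fatty acid enzymes and 0.29 for regulators under TMM and the median of ratios. Those against epiblast became -0.0165 under both for sterol and -0.75 for fatty acid enzymes. With the same upper quartile they were -0.78 for fatty acid enzymes and 0.11 for regulators against mesoderm, and -0.26 for sterol and -0.99 for fatty acid enzymes against epiblast. The same RPKM total gave -0.77 for fatty acid enzymes against epiblast. For mesoderm over epiblast the fatty acid median was 0.0010 with the same upper quartile and 0.12 with the same RPKM total. Without *Fdps* the sterol share of RPKM was 0.0461%, 0.0481% and 0.0483% in endoderm, mesoderm and epiblast, and as a share of reads it was 0.0571%, 0.0647% and 0.0672%. Without *Scd2* the fatty acid share was 0.0338%, 0.0634% and 0.0576%, and as a share of reads 0.130%, 0.227% and 0.227%.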

Other observations

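Lists of genes that take up, bind, store or oxidise lipids held many genes with a higher level in endoderm. Of 16 genes of sterol uptake, efflux and esterification, 11 had RPKM>5 in any library, without which no gene could be called. Of these, 8 were called as higher in endoderm than in mesoderm and 9 as higher than in epiblast, while 1 and 0 were called the other way. *Soat2*, which esterifies cholesterol, was at 90.7 RPKM in endoderm (8033 reads) against 0.311 in mesoderm (27 reads) and 0.209 in epiblast (19 reads). The endocytic receptor *Lrp2* was at 41.7, 2.55 and 9.26 RPKM, the lipoprotein receptor *Scarb1* at 78.9, 10.7 and 13.6 and the sterol carrier *Stard4* at 27.9, 4.17 and 3.10. *Mylip*, a ubiquitin ligase, was at 21.2, 4.13 and 2.50 RPKM. The median log2 ratio of the list was 1.70 against mesoderm and 1.95 against epiblast. Over all genes with RPKM>5 the shares called as higher in endoderm were 14.4% and 15.7%, and those called as lower 8.56% and 8.94%.

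Of 18 genes of fatty acid oxidation, 16 had RPKM>5 in any library. Of these, 7 were called as higher in endoderm than in mesoderm and 8 as higher than in epiblast, while 0 and 1 were called the other way. Over all genes with RPKM>5 the shares higher in endoderm were 14.4% and 15.7%, and those lower in endoderm 8.56% and 8.94%. The peroxisomal enzymes *Ehhadh* (12.8, 1.18 and 1.04 RPKM in endoderm, mesoderm and epiblast) and *Acaa1a* (29.1, 12.5 and 10.2) were among them, as was the mitochondrial thiolase *Acaa2* (33.6, 12.3 and 7.06). *Cpt1c*, a brain form of the carnitine transferase, was highest in epiblast at 6.17 RPKM. Of 21 genes of fatty acid activation, binding and glycerolipid synthesis, 13 had RPKM>5 in any library. Of these, 7 were called as higher in endoderm than in mesoderm and 6 than in epiblast, beside the same shares of 14.4% and 15.7%. The other way 1 and 2 were called, beside 8.56% and 8.94%. *Dgat2*, the last enzyme of triglyceride synthesis, was at 46.5, 8.41 and 4.54 RPKM and the ligase *Acsl1* at 21.7, 6.13 and 3.89. The fatty acid binding proteins divided by layer, with *Fabp1* at 13.4 RPKM in endoderm, 1 read in mesoderm and not listed in epiblast, while *Fabp5* was at 38.5, 112 and 243 RPKM and *Fabp3* at 0.646, 3.0 and 17.0. The endoderm library carried the visceral endoderm markers as well, and their part in these values was not tested.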
